A study of Mus musculus with 18 samples.

Results

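FGF2 was compared with vehicle at d5 of osteoblast differentiation in O9-1 cells, a multipotent line of neural crest (NC) cells that was derived from the heads of mouse embryos. Of the 18 RNA-seq libraries of the series, 6 entered the comparison and were chosen by their titles: 3 replicates of Ctrl+vehicle (siCtrl no FGF2) and 3 replicates of Ctrl+FGF2 (siCtrl with FGF2). All 6 were labelled wild type, had received scramble siRNA (siCtrl) and were cultured in osteoblast differentiation medium, so both groups carried the transfection. The dose of FGF2 for these cultures is not given in the sources used here. The 3 Y/T dKD+FGF2 libraries of d5, which received FGF2 and siRNA pools against Yap and Taz, served only to estimate the spread, and the 6 Ctrl libraries of d2.5 (3 with vehicle and 3 with FGF2) were used to see where d5 differs. The labels give each day its own batch, so day and batch cannot be told apart, and effects of FGF2 were therefore taken within a day. They do not say whether replicates came from separate cultures, so p-values measure the spread between these libraries, which may be technical.

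FGF2 is a secreted growth factor that binds FGF receptors, which are tyrosine kinases, together with heparan sulfate on the cell surface. The receptors signal through Ras and ERK1/2, which induce transcription factors of the Etv and Egr families and, with them, the Sprouty and Dusp inhibitors that dampen the same pathway. In cranial mesenchyme, FGF signaling is known for its control of growth and bone formation at the sutures. In bulk samples, in which the RNA of all cells of a culture is pooled, fewer cells of a type and less RNA per cell cannot be told apart.

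The vehicle libraries held 11026929 to 13527647 counts on genes (median 12388773) and the FGF2 libraries 11088576 to 12801125 (median 11417947). The 20 most abundant genes took between 17.4% and 17.8% of the counts with vehicle and between 12.9% and 14.2% with FGF2. Of the NC markers, Sox10 and Foxd3 had no count in any of the 6 libraries and Ngfr had 4 counts with vehicle and 6 with FGF2, whereas Tfap2a, Pax3, Twist1, Snai1 and Snai2 were detected in all 6. The mesenchymal markers Vim, Pdgfra and Prrx1 were detected in all 6, while Thy1 had 3 counts with vehicle and 2 with FGF2. Markers of epithelial, blood, skeletal muscle, melanocyte and endothelial cells summed to at most 5.02 CPM a list in any library, where CPM is the TMM-normalized count scaled to a common library size. Of the 11 Schwann and glial markers, 3 were called higher with FGF2 and the list summed to between 286 and 321 CPM with vehicle and between 323 and 354 CPM with FGF2, most of it Pmp22, whose own call (log2 fold change 0.15, adjusted p = 0.0121) was lost without vehicle replicate 2 (adjusted p = 0.0524) or 3 (0.0625) or FGF2 replicate 1 (0.0537). Cnp and Mbp were called as well, with log2 fold changes of 0.68 (adjusted p = 1.43e-05) and 0.81 (adjusted p = 0.00805). Of 12 endothelial markers, 5 had no count in any library and 2 were called higher, Pecam1 and Egfl7, and the list summed to between 1.85 and 2.25 CPM with vehicle and between 4.25 and 5.02 CPM with FGF2. The part of these cells in the results was not tested.

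At d5, 13304 genes were tested and FGF2 changed 6278 of them, or 47.2%, at a Benjamini-Hochberg adjusted p under 0.05 in edgeR's quasi-likelihood test. It raised 3125 genes (23.5%) and lowered 3153 (23.7%), and these shares are the background against which the gene groups are read. The typical change was small, since called genes had a median absolute log2 change of 0.37, and 771 genes changed at least 2-fold, of which 324 rose and 447 fell. The median log2 fold change of all genes tested was 0.02. Genes of the cell cycle list were called lower in 146 of 158 cases (median log2 fold change −1.20) and osteogenic genes in 20 of 40 cases, with 15 called higher. The groups that follow are others, and whether they moved with the cell cycle genes through a shared cause was not tested. The plot of shares by gene list sets each of the 50 lists beside the background.

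**Figure D1:**
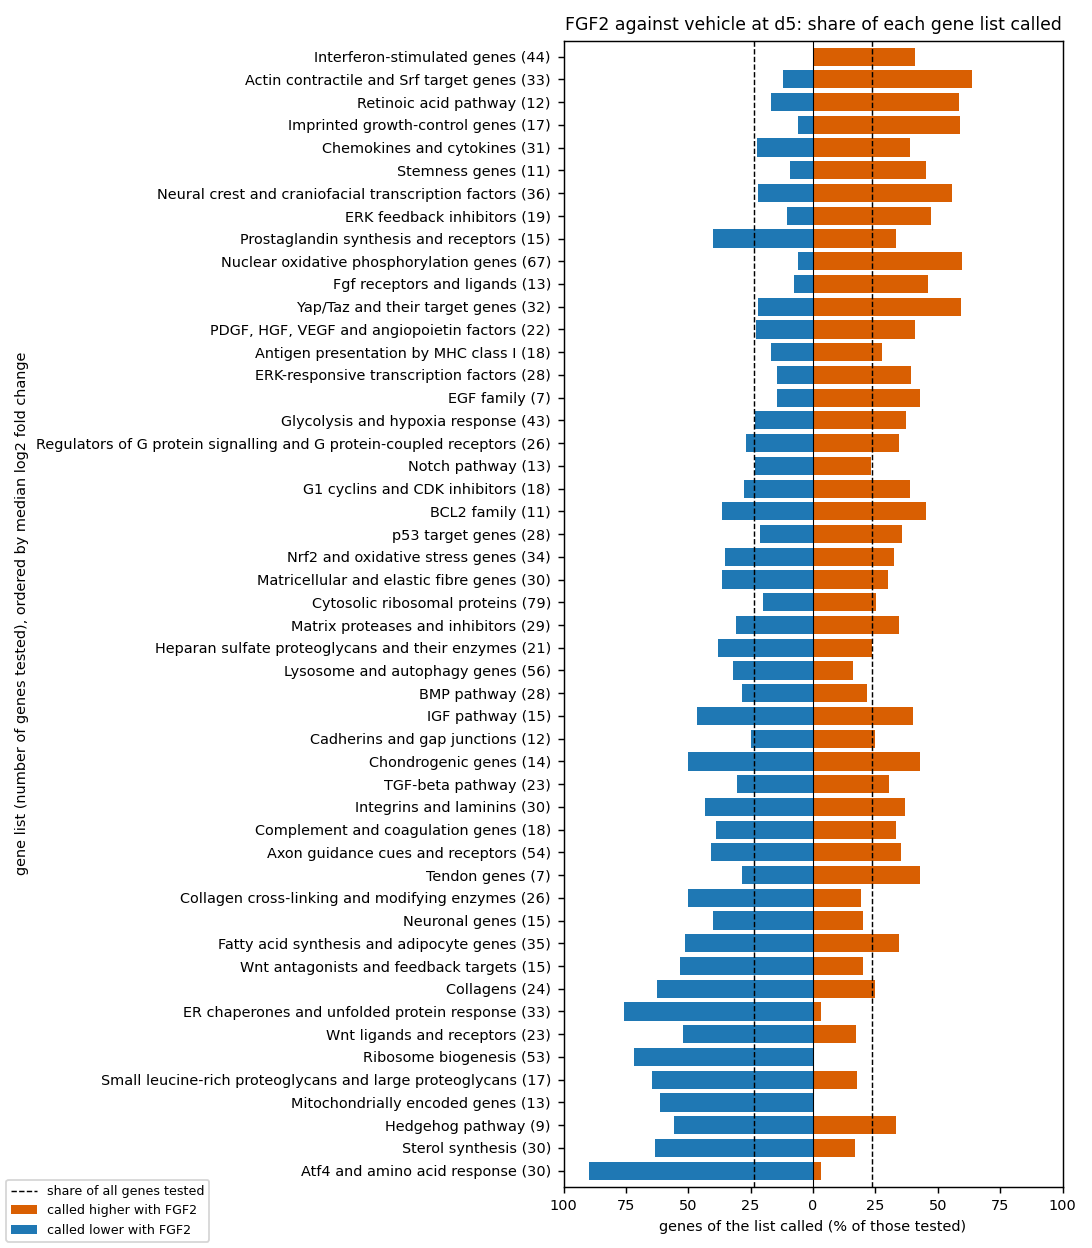
Share of each of 50 gene lists that edgeR called higher (orange, to the right) or lower (blue, to the left) with FGF2 at d5, in percent of the genes tested, whose number is in brackets. Dashed lines mark the shares over all 13304 genes tested, 23.5% higher and 23.7% lower, and lists are ordered by their median log2 fold change, from 0.27 for interferon-stimulated genes at the top to −1.43 for the Atf4 list at the bottom.

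Of the 50 lists, that of Atf4 and its amino acid response had the median farthest from 0. Atf4 is a transcription factor whose protein is made when amino acids run short or translation is under stress, and it induces enzymes and transporters that supply amino acids and one-carbon units. FGF2 lowered 27 of the 30 genes tested and raised 1 (median log2 fold change −1.43). When 1 library was left out, the median ranged from −1.61 (without vehicle replicate 2) to −1.21 (without vehicle replicate 1). Atf4 itself was at 416, 269 and 343 CPM in the 3 vehicle libraries and at 112, 119 and 119 CPM in the 3 FGF2 libraries, a log2 fold change of −1.55 (SE 0.10, adjusted p = 1.46e-09). Ddit3, the stress transcription factor Chop, was at 47.2, 28.1 and 43.3 CPM with vehicle and at 11.5, 16.5 and 14.1 CPM with FGF2 (log2 fold change −1.47, adjusted p = 5.31e-07). For both genes the groups did not overlap, as was so for 7227 of all genes tested (54.3%), with vehicle replicate 1 the highest and replicate 2 the lowest of the vehicle libraries.

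Known targets of Atf4 were among the largest falls of all named genes. Trib3, a pseudokinase that feeds back on Atf4, was at 64.7, 32.1 and 47.4 CPM with vehicle and at 1.56, 5.53 and 3.74 CPM with FGF2 (log2 fold change −3.69, SE 0.27, adjusted p = 7.15e-09). Chac1, which degrades glutathione, was at 30.0, 16.5 and 26.8 CPM against 1.56, 2.92 and 3.65 CPM, a log2 fold change of −3.15. Asns, which makes asparagine, was at 194, 102 and 142 CPM against 20.7, 26.7 and 24.3 CPM, a log2 fold change of −2.60. Every FGF2 library was below every vehicle library for each of these genes, and the FGF2 libraries were the tighter group for Asns. Mitochondrial folate enzymes fell too. Mthfd2 was at 118, 61.7 and 85.6 CPM with vehicle and at 8.14, 9.83 and 9.85 CPM with FGF2 (log2 fold change −3.24), and Aldh1l2 was at 343, 215 and 292 CPM and 18.8, 44.7 and 30.6 CPM (log2 fold change −3.15). Psat1, of serine synthesis, fell from a mean of 122 to 32.0 CPM (log2 fold change −1.91). The member that rose was Shmt1, the cytosolic serine hydroxymethyltransferase, with a log2 fold change of 0.32 (adjusted p = 0.0229) that lost its call with DESeq2 (adjusted p = 0.132), with unstranded counts (0.0515) and without vehicle replicate 1 (0.0747), vehicle replicate 2 (0.065) or FGF2 replicate 1 (0.0812), and Atf3 and Slc1a5 were not called (log2 fold changes −0.16 and −0.08).

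The promoters of this list were read for the composite C/EBP-ATF motif to which Atf4 dimers are known to bind, written TGATGNAAN and searched on both strands. RefSeq promoter windows of the GRCm38.p6 build, which run from 250 bases before to 50 bases after a gene's start, were found for 25 of the 30 genes. The motif was in 8 of their 30 windows (26.7%), against 1299 of all 32851 windows (3.95%). Stretches of 80 bases are shown 5′ to 3′ on the gene's strand for Asns and Chac1, members with log2 fold changes of −2.60 and −3.15 whose windows held the motif, with the match in capitals. The Asns stretch (chr6:7693210-7693289, minus strand) covers positions −80 to −1 from the start and the Chac1 stretch (chr2:119351012-119351091, plus strand) positions −230 to −151, with its match on the opposite strand. Atf3, which was not called (log2 fold change −0.16), also carried the motif, at position −111. A match describes the letters of the window and was not tested as a site.
Asns: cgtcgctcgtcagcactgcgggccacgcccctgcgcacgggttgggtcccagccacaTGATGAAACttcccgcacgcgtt
Chac1: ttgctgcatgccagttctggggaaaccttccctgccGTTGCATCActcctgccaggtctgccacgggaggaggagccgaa

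Genes of sterol synthesis fell as a group. Cells make cholesterol from acetyl-CoA through the mevalonate pathway, and the factor Srebf2 raises its enzymes when sterols are low. Of 30 genes tested, 19 were called lower and 5 higher (median log2 fold change −0.53). Hmgcs1, which opens the pathway, was at 377, 340 and 336 CPM with vehicle and at 198, 179 and 189 CPM with FGF2 (log2 fold change −0.90, SE 0.05, adjusted p = 9.58e-11). Cyp51, which demethylates lanosterol, was at 352, 298 and 311 CPM against 126, 106 and 116 CPM (log2 fold change −1.47), and Sqle, the squalene epoxidase, was at 212, 164 and 185 CPM against 95.2, 79.8 and 79.5 CPM (log2 fold change −1.14). Insig1, which retains the Srebf proteins in the ER, fell from a mean of 115 to 56.6 CPM (log2 fold change −1.02). The 5 members that rose were not enzymes of the pathway: Abca1 and Abcg1, which export cholesterol, rose by 0.51 and 0.55, Nr1h2, the nuclear receptor that senses oxysterols, by 0.34, Scap, which escorts Srebf proteins to the Golgi, by 0.51 and Insig2, a relative of Insig1, by 0.22. The sterol regulatory element TCACNCCAC was in 1 of the 27 promoter windows of this list (3.70%), that of Hmgcs1, and in 1.24% of all windows.

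Genes of fatty acid metabolism changed in both directions. Of 35 genes on the list of fatty acid synthesis and adipocytes, 18 fell and 12 rose. The stearoyl-CoA desaturases fell together: Scd2 was at 2556, 2287 and 2393 CPM with vehicle and at 1333, 1360 and 1343 CPM with FGF2 (log2 fold change −0.84), and Scd1 had the same log2 fold change of −0.84. Fabp5, a fatty acid carrier, was at 212, 185 and 204 CPM against 54.6, 54.7 and 53.3 CPM (log2 fold change −1.88, adjusted p = 3.97e-14), and Acsl3, which activates fatty acids, fell by 1.27 on the log2 scale. Fasn, the fatty acid synthase, fell by 0.46. Gpd1, which makes the glycerol backbone of lipids, rose from 1.42, 0.932 and 1.17 CPM to 5.63, 4.53 and 5.86 CPM (log2 fold change 2.19), Cebpd rose by 0.92 and Angptl4, an inhibitor of lipoprotein lipase, by 1.23. Pparg, the adipocyte regulator, rose by 0.40, while Plin2 and Lpl were not called (log2 fold changes −0.06 and −0.05).

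**Figure D2:**
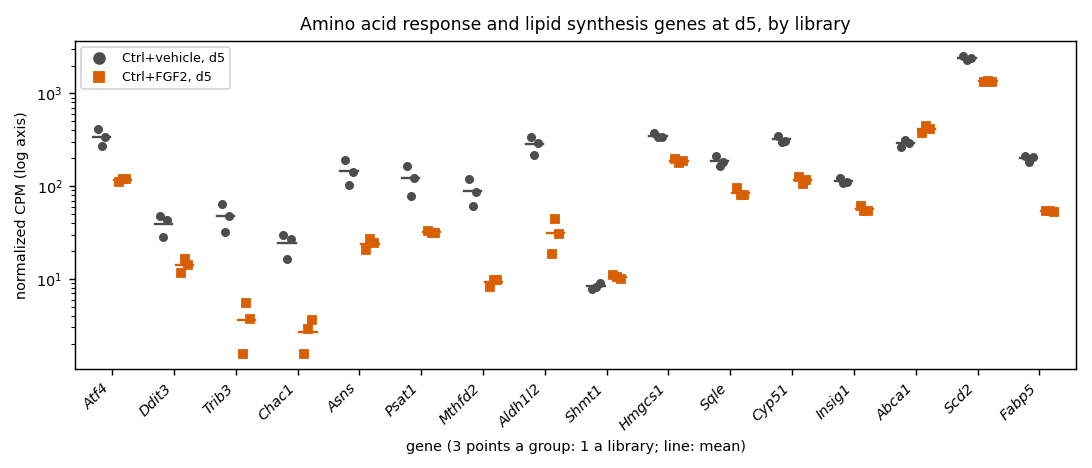
Normalized CPM (log axis) of genes of the amino acid response and of lipid synthesis in each of the 3 vehicle (grey circles) and 3 FGF2 libraries (orange squares) of d5, with the group mean as a line. The vehicle and FGF2 points do not overlap for any gene shown. Shmt1 and Abca1 are higher with FGF2, and Trib3 lies between 32.1 and 64.7 CPM with vehicle and between 1.56 and 5.53 CPM with FGF2.

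The machinery that makes ribosomes and folds secreted proteins was also lower. Ribosome biogenesis takes place in the nucleolus, where ribosomal RNA is transcribed, modified and assembled. Of its 53 genes, 38 fell and none rose (median log2 fold change −0.28). Nop56, a core protein of the box C/D particles that methylate ribosomal RNA, was at 85.4, 69.2 and 72.5 CPM with vehicle and at 40.00, 40.3 and 42.6 CPM with FGF2 (log2 fold change −0.88, SE 0.07, adjusted p = 1.37e-08). Gnl3, the GTPase nucleostemin, was at 108, 93.6 and 104 CPM against 47.3, 55.5 and 51.1 CPM (log2 fold change −0.99). Ncl, nucleolin, fell by 0.28. The proteins of the finished ribosome did not move with it: of 79 cytosolic ribosomal protein genes, 20 were called higher and 16 lower (10 lower without vehicle replicate 1 or FGF2 replicate 3), shares near the background, and every log2 fold change lay between −0.30 and 0.31.

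ER chaperones and genes of the unfolded protein response were called lower in 25 of 33 cases and higher in 1 (median log2 fold change −0.26). Hspa5, the chaperone BiP, was at 1133, 1064 and 1077 CPM with vehicle and at 869, 884 and 853 CPM with FGF2 (log2 fold change −0.33, adjusted p = 5.55e-07). Creb3l1, a membrane-bound factor that drives collagen secretion in osteoblasts, fell farthest, from 162, 138 and 152 CPM to 47.1, 50.01 and 47.5 CPM (log2 fold change −1.64, SE 0.06). Herpud1, of ER-associated degradation, fell by 0.85 and the stress factor Xbp1 by 0.32. Creb3l2, a relative of Creb3l1, was the member that rose (log2 fold change 0.42).

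Mitochondrial and nuclear genes of the respiratory chain went apart. Mitochondrial DNA encodes 13 proteins of oxidative phosphorylation, and FGF2 lowered 8 of their 13 genes and raised none (median log2 fold change −0.34), or 1 without vehicle replicate 2 or 3. mt-Nd1, of complex I, was at 1032, 1125 and 1104 CPM with vehicle and at 707, 739 and 716 CPM with FGF2 (log2 fold change −0.59), mt-Cytb of complex III fell by 0.47 and mt-Co1 of complex IV by 0.42. Of 67 nuclear genes of oxidative phosphorylation, 40 rose and 4 fell, but by little (median log2 fold change 0.17). Only 1 of the falls was called without vehicle replicate 1 or FGF2 replicate 2, and 2 without vehicle replicate 3 or FGF2 replicate 1. Ndufa7, of complex I, was at 36.8, 35.6 and 39.7 CPM against 55.2, 55.5 and 56.2 CPM (log2 fold change 0.57), and Cox4i1 of complex IV rose by 0.23. Ppargc1a, a coactivator of mitochondrial genes, was at 11.6, 12.8 and 12.9 CPM with vehicle and at 18.5, 22.97 and 20.8 CPM with FGF2 (log2 fold change 0.74).

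Sugar metabolism changed gene by gene. On the list of glycolysis and hypoxia, 16 of 43 genes rose and 10 fell. Ldhb, the lactate dehydrogenase subunit of oxidative tissues, was at 30.2, 29.4 and 29.1 CPM with vehicle and at 86.8, 78.1 and 80.4 CPM with FGF2 (log2 fold change 1.47), whereas Ldha was not called (log2 fold change −0.10). Aldoc rose from 1.13, 1.01 and 1.59 CPM to 5.37, 4.30 and 5.35 CPM (log2 fold change 1.99), while Aldoa was not called (log2 fold change 0.06). The pyruvate dehydrogenase kinase genes Pdk4 and Pdk2 rose by 0.88 and 0.93, and the glucose transporter Slc2a1 rose by 0.67. Ndrg1 (log2 fold change −1.29), Hk2 (−0.46) and the growth factor Vegfa (−0.58) fell.

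Collagen genes and the enzymes that finish collagen were lower. Fibrillar collagens are hydroxylated and folded in the ER, secreted and cross-linked outside the cell. FGF2 lowered 15 of 24 collagen genes, apart from those on the osteogenic list, and raised 6 (median log2 fold change −0.22, or −0.34 with at least 10 counts in every library). Col1a2 lost more CPM than any other called gene outside the osteogenic and cell cycle lists, from 36298, 35456 and 35866 CPM with vehicle to 19876, 22415 and 21731 CPM with FGF2 (log2 fold change −0.75, SE 0.04). Col3a1 was at 14751, 15909 and 15342 CPM against 8420, 9421 and 9122 CPM (log2 fold change −0.77), and Col5a2 and Col6a2 fell by 0.66 and 0.80. Of the enzymes, 13 of 26 fell and 5 rose. The prolyl hydroxylase subunit P4ha1 was at 232, 207 and 213 CPM against 109, 109 and 107 CPM (log2 fold change −1.002), P4ha2 fell by 1.12, the lysyl hydroxylase Plod2 by 0.97 and the collagen chaperone Serpinh1 by 0.49. The cross-linking enzyme Lox was not called, with a log2 fold change of 0.00, and its relatives Loxl1 and Loxl3 rose by 0.61 and 0.54. The collagens that rose included Col18a1 of basement membranes, which was at 295, 337 and 318 CPM with vehicle and at 546, 468 and 503 CPM with FGF2 (log2 fold change 0.68).

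Small leucine-rich proteoglycans, which bind collagen fibrils and set their width, split. Of 17 genes on the proteoglycan list, 11 fell and 3 rose (median log2 fold change −0.31). Dcn, decorin, was at 572, 642 and 599 CPM with vehicle and at 112, 148 and 138 CPM with FGF2 (log2 fold change −2.18, SE 0.07, adjusted p = 3.16e-13). Lum, lumican, was at 151, 191 and 162 CPM against 64.1, 69.8 and 68.3 CPM (log2 fold change −1.32), and Omd, osteomodulin, fell by 0.84. Ogn, osteoglycin, went the other way, from 1978, 1904 and 1921 CPM to 3806, 3695 and 3681 CPM (log2 fold change 0.95, SE 0.03). For Omd and Ogn, members of 1 family with opposite directions, the vehicle and FGF2 libraries did not overlap.

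The chondrogenic list split more widely. Of 14 genes tested, 6 rose and 7 fell. Acan, the cartilage proteoglycan aggrecan, was at 9.35, 13.7 and 11.9 CPM with vehicle and at 65.6, 52.4 and 60.7 CPM with FGF2 (log2 fold change 2.33, SE 0.10, adjusted p = 1.58e-11). Sox9, the regulator of cartilage fate, was at 43.7, 40.2 and 42.0 CPM against 78.3, 78.1 and 80.7 CPM (log2 fold change 0.91). Matn4 rose by 1.88 and Col9a2 by 1.35. In contrast, Col11a2 fell from 22.6, 44.0 and 30.5 CPM to 3.29, 2.996 and 3.99 CPM (log2 fold change −3.25), Col9a1, the partner chain of Col9a2, fell by 2.51, and the link protein Hapln1 fell by 1.72. Col2a1, the main collagen of cartilage, was at 154, 246 and 197 CPM with vehicle and at 263, 175 and 230 CPM with FGF2, overlapping groups that were not called (log2 fold change 0.15, adjusted p = 0.355) unless vehicle replicate 2 (log2 fold change 0.33, adjusted p = 0.018) or FGF2 replicate 2 (0.30, adjusted p = 0.0305) was left out or no filter was used (adjusted p = 0.00415). Of 7 tendon genes, 3 rose, among them Scx, the tendon transcription factor (log2 fold change 0.75), and 2 fell.

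Matricellular genes, whose secreted products modulate cell contact with matrix, rose in 9 and fell in 11 of 30 cases. Postn, periostin, was at 27360, 30577 and 28430 CPM with vehicle and at 16250, 20592 and 18518 CPM with FGF2 (log2 fold change −0.64), and Tnc, Tnn, Fn1 and Fbln2 fell by 0.72, 0.48, 0.34 and 0.87. Thbs1, thrombospondin 1, was at 2445, 2802 and 2615 CPM against 3905, 4340 and 4133 CPM (log2 fold change 0.65), Npnt, an integrin ligand of basement membranes, rose by 1.08, Sparcl1 by 1.42 and Egfl6 by 1.75. Matrix proteases and their inhibitors were as mixed, with 10 of 29 higher and 9 lower. Serpine2, an inhibitor of thrombin, rose from 48.0, 48.5 and 46.5 CPM to 206, 129 and 151 CPM (log2 fold change 1.76), whereas Mmp14 fell by 0.38, Mmp10 by 1.22 and Timp1 by 0.52. Mmp2 was not called (log2 fold change −0.01).

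Receptors for matrix changed in both directions. Of 30 integrin and laminin genes, 13 fell and 11 rose. Itga4, a receptor chain for fibronectin and Vcam1, was at 13.9, 11.5 and 15.5 CPM with vehicle and at 0.606, 0.307 and 0.764 CPM with FGF2 (log2 fold change −4.60, SE 0.25, adjusted p = 1.35e-10). The integrin chains Itga3, Itga7 and Itga2, which bind laminins and collagens, rose by 1.36, 1.46 and 1.61. Among laminins, Lama4 was at 152, 158 and 155 CPM against 47.4, 49.6 and 52.7 CPM (log2 fold change −1.64), and Lama5 was at 25.4, 30.0 and 30.1 CPM against 92.4, 101 and 103 CPM (log2 fold change 1.79). Of 12 cadherin and gap junction genes, 3 rose and 3 fell, shares near the background. Cdh11, osteoblast cadherin, was at 641, 553 and 593 CPM against 297, 251 and 267 CPM (log2 fold change −1.13), the gap junction gene Gja1 (connexin 43) fell by 1.24, and the N-cadherin gene Cdh2 rose by 0.47. Of 21 genes of heparan sulfate proteoglycans and their enzymes, which serve FGF2 as co-receptors, 8 fell and 5 rose: Sdc4 rose by 0.36, while Glce and the sulfatase Sulf1 fell by 0.91 and 0.76.

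**Figure D3:**
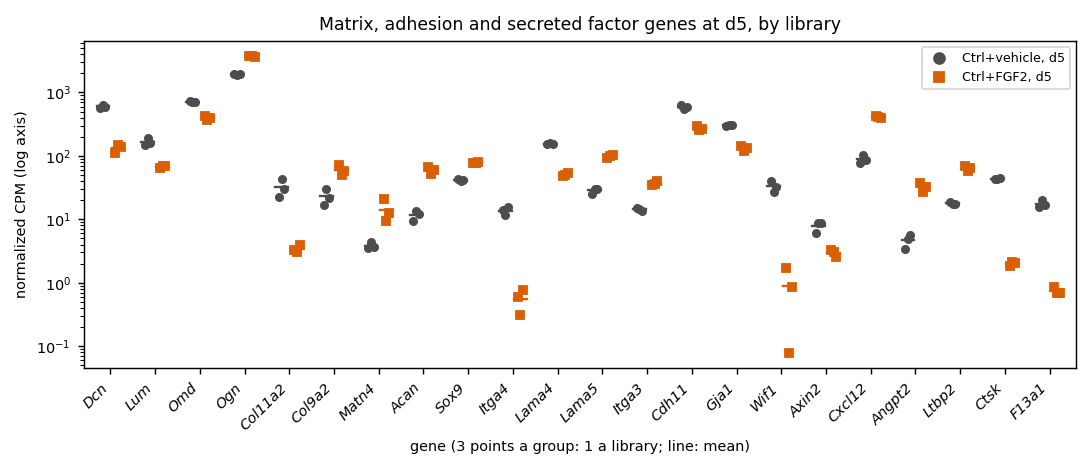
Normalized CPM (log axis) of matrix, adhesion and secreted factor genes in each of the 3 vehicle (grey circles) and 3 FGF2 libraries (orange squares) of d5, with the group mean as a line. Neighbours within a family go apart, such as Omd and Ogn, Col11a2 and Col9a2, or Lama4 (152 to 158 CPM with vehicle, 47.4 to 52.7 CPM with FGF2) and Lama5 (25.4 to 30.1 CPM with vehicle, 92.4 to 103 CPM with FGF2).

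Genes of the contractile actin cytoskeleton rose. They are targets of serum response factor (Srf) and its actin-regulated cofactors. Of 33 genes tested, 21 were called higher and 4 lower (median log2 fold change 0.26). Acta2, smooth muscle actin, was at 1834, 1915 and 1879 CPM with vehicle and at 2448, 2810 and 2670 CPM with FGF2 (log2 fold change 0.49, SE 0.05, adjusted p = 9.55e-08). The myosin light chain Myl9 was at 155, 149 and 143 CPM against 231, 209 and 214 CPM (log2 fold change 0.55), its kinase Mylk rose by 0.80, and the actin nucleator Lmod1 rose from 32.2, 35.6 and 32.1 CPM to 66.6, 71.3 and 67.2 CPM (log2 fold change 1.03). Synpo2, an actin-bundling protein of the Z-disc, rose by 2.23. Tagln and Cnn1, common smooth muscle markers, were not called (log2 fold changes −0.01 and 0.41), with Cnn1 under 1 CPM in all 6 libraries. Actb, the cytoskeletal actin, rose by 0.28, and the 4 members that fell were Fhl1 (log2 fold change −0.88), Csrp2 (−0.32), Tpm4 (−0.21) and Cald1 (−0.14). The CArG box of Srf was in 6 of the 38 promoter windows of this list (15.8%) and in 1.63% of all windows. The 6 windows belonged to 5 genes. Cnn2, Fhl2, Myl9 and Vcl had positive log2 fold changes and Fhl1 a negative one, and no match was tested as a site.

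Yap and Taz share some of these targets. On a list that mixes Yap and Taz, upstream regulators and targets, 19 of 32 genes rose and 7 fell (median log2 fold change 0.16). Log2 fold changes on it ran from −1.40 to 1.45. Amot, an upstream inhibitor, was at 353, 423 and 390 CPM with vehicle and at 557, 697 and 630 CPM with FGF2 (log2 fold change 0.69), and Wwc1, the upstream regulator Kibra, rose by 1.45. Yap1 was not called (log2 fold change 0.07) and, among commonly measured targets, Ankrd1 rose by 0.40 and Ccn1 was not called (log2 fold change −0.04).

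The Fgf pathway's own genes showed a modest response at d5. Of 13 receptor and ligand genes tested, 6 rose and 1 fell. Fgfr1 was at 497, 544 and 520 CPM with vehicle and at 456, 409 and 441 CPM with FGF2 (log2 fold change −0.26, adjusted p = 1.65e-04). Fgfr2 was at 494, 514 and 493 CPM against 723, 655 and 672 CPM (log2 fold change 0.45, adjusted p = 4.35e-08), and Fgfrl1, a receptor without a kinase domain, rose by 0.84. The ligands Fgf7 and Fgf10 rose by 0.42 and 0.54, whereas Fgf18 was not called (log2 fold change 0.03). The count of falls was 2 without FGF2 replicate 1.

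Of 19 feedback inhibitors of ERK, 9 rose and 2 fell (median log2 fold change 0.18), and 4 fell without vehicle replicate 1. Log2 fold changes on this list ran from −1.53 to 1.12, so the lowest lay farther from 0 than the highest. Spry2 was at 16.2, 19.1 and 17.1 CPM with vehicle and at 25.1, 21.4 and 25.7 CPM with FGF2 (log2 fold change 0.45), Spry4 rose by 0.33 but was not called without vehicle replicate 1 (adjusted p = 0.092), FGF2 replicate 1 (0.0548) or FGF2 replicate 3 (0.091), and Spry1 rose by 0.96 with FGF2 replicate 2 (2.07 CPM) inside the range of the vehicle libraries (1.32 to 2.17 CPM). Lrig1, which removes growth factor receptors from the surface, rose from 11.9, 17.6 and 13.8 CPM to 31.5, 31.6 and 31.6 CPM (log2 fold change 1.12). The ERK phosphatase genes Dusp6 and Dusp4 were not called, at 24.6, 34.3 and 27.8 CPM against 27.5, 24.3 and 24.7 CPM for Dusp6 (log2 fold change −0.19, adjusted p = 0.12). Dusp6 was called lower without vehicle replicate 1 (log2 fold change −0.29, adjusted p = 0.0133), with no filter (adjusted p = 0.0397) and with all 18 libraries in the fit (adjusted p = 0.0475). Of 28 ERK-responsive transcription factors, 11 rose and 4 fell. Etv4 was at 1.98, 5.44 and 4.95 CPM against 10.8, 9.14 and 9.85 CPM (log2 fold change 1.23), Etv5 rose by 0.59 and Egr3 by 1.00, while Myc fell by 0.81 and Klf4 by 0.93.

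Wnt genes were called lower more often than higher. Wnt ligands signal through Frizzled receptors and beta-catenin, and Axin2 and the Nkd genes are induced by that signal and restrain it. On the list of antagonists and feedback targets, 8 of 15 genes fell and 3 rose (median log2 fold change −0.21). Wif1, a secreted Wnt inhibitor with the largest fall among the 12 that the naming rule takes, was at 39.95, 26.7 and 32.1 CPM with vehicle and at 1.73, 0.0768 and 0.849 CPM with FGF2 (log2 fold change −5.24, SE 0.37, adjusted p = 3.39e-09). Axin2 was at 6.14, 8.85 and 8.73 CPM against 3.29, 3.07 and 2.55 CPM (log2 fold change −1.42), Nkd2 fell by 2.35 and Apcdd1 by 1.57. The secreted inhibitors Frzb, Sfrp1 and Dkk3 rose by 1.01, 0.35 and 0.37. Of 23 ligand, R-spondin and receptor genes, 12 fell and 4 rose (median log2 fold change −0.28): Rspo1 and Rspo2 fell by 1.93 and 1.48, Fzd1 fell by 0.89, and Fzd8 and the co-receptor Lrp5 rose by 0.65 and 0.48.

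BMP and TGF-beta genes went in both directions, with 6 of 28 BMP genes higher and 8 lower, and 7 of 23 TGF-beta genes higher and 7 lower, shares not far from the background. The BMP ligands Bmp4 and Bmp3 fell by 0.78 and 0.96, and the antagonist Grem1 was at 2284, 2455 and 2313 CPM with vehicle and at 1644, 1860 and 1773 CPM with FGF2 (log2 fold change −0.42). Some known BMP targets were among the members that rose. Id3 was at 75.4, 77.0 and 78.3 CPM against 138, 114 and 131 CPM (log2 fold change 0.73), Id1 rose by 0.89 and Smad6 by 0.59, as did the antagonist Chrdl1 (1.13), whereas Id2 and Smad7 were not called (log2 fold changes −0.19 and 0.00). Ltbp2, of the family that stores TGF-beta in the matrix, was at 18.7, 17.6 and 17.4 CPM against 68.0, 58.4 and 64.6 CPM (log2 fold change 1.83, SE 0.07), while the ligand Tgfb2 fell by 0.74 and the receptor Tgfbr2 by 0.51.

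Of the other signaling pathways, Hedgehog genes were called lower in 5 of 9 cases and higher in 3 (median log2 fold change −0.36). With at least 10 counts required in every library, 3 were called lower and the median was −0.16. Gli1, the pathway's target and factor, was at 1.23, 2.49 and 1.51 CPM with vehicle and at 0.173, 0 and 0.255 CPM with FGF2 (log2 fold change −3.59, adjusted p = 5.27e-05), and the receptor Ptch1 fell by 0.40. Of 13 Notch genes, 3 rose and 3 fell, shares near the background. The target Hes1 was at 7.56, 9.94 and 9.65 CPM against 3.46, 3.76 and 2.72 CPM (log2 fold change −1.45). Hey1 and the ligand Jag1 fell by 0.71 and 0.51, and the receptors Notch1, Notch2 and Notch3 rose by 0.53, 0.21 and 0.59. In the IGF pathway 7 of 15 genes fell and 6 rose. Igf1 was at 747, 701 and 707 CPM against 234, 245 and 243 CPM (log2 fold change −1.58, SE 0.04, adjusted p = 2.19e-14), while its receptor Igf1r rose by 0.57 and the binding protein Igfbp4 by 0.44.

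Retinoic acid genes rose in 7 of 12 cases and fell in 2. Cyp26b1, which degrades retinoic acid, was at 5.48, 6.91 and 6.97 CPM with vehicle and at 36.8, 22.05 and 27.7 CPM with FGF2 (log2 fold change 2.14, SE 0.17, adjusted p = 1.37e-08). Aldh1a1, which makes retinoic acid, was at 48.7, 55.7 and 49.5 CPM against 127, 108 and 122 CPM (log2 fold change 1.21). The retinoic acid binding proteins Crabp1 and Crabp2 fell by 0.48 and 0.58.

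Of 22 genes of the PDGF, HGF, VEGF and angiopoietin families, 9 rose and 5 fell. Angpt2, an angiopoietin that acts on the endothelial receptor Tek, was at 3.40, 4.89 and 5.62 CPM with vehicle and at 37.8, 27.3 and 32.4 CPM with FGF2 (log2 fold change 2.79, SE 0.14, adjusted p = 9.39e-11), while Tek itself had 2 counts with vehicle and 1 with FGF2. Pdgfra, the PDGF receptor of mesenchyme, was at 317, 358 and 334 CPM against 552, 542 and 538 CPM (log2 fold change 0.69). Of 7 EGF family genes, 3 rose and 1 fell, with the ligands Ereg and Tgfa higher by 1.33 and 0.55. Among 26 regulators of G protein signaling and receptors, 9 rose and 7 fell. Rgs16 was at 4.82, 3.49 and 3.27 CPM against 16.7, 15.7 and 16.2 CPM (log2 fold change 2.08) and Rgs2 at 33.0, 33.0 and 32.6 CPM against 99.7, 81.3 and 84.4 CPM (log2 fold change 1.43), whereas the endothelin receptor Ednra and the lysophosphatidic acid receptor Lpar1 fell by 1.20 and 0.82. On the prostaglandin list, 5 of 15 genes rose and 6 fell: the inducible synthase Ptgs2 fell by 0.91 and the receptor Ptger4 by 2.04, while Ptgs1 and Ptges rose by 0.30 and 0.60.

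Many interferon-stimulated genes rose. Interferons or stress-sensing pathways induce them through Stat and Irf factors, and their products restrict viruses. Of 44 genes tested, 18 were called higher and none lower, or 1 lower without FGF2 replicate 2 (median log2 fold change 0.27). Ifit1 was at 4.63, 3.57 and 4.62 CPM with vehicle and at 6.32, 5.53 and 6.45 CPM with FGF2 (log2 fold change 0.52, adjusted p = 0.00918, but 0.0584 without vehicle replicate 2 and 0.0556 with DESeq2), and Ifit3 at 2.93, 5.05 and 4.20 CPM against 6.58, 8.14 and 6.28 CPM (log2 fold change 0.77). Ifit3 and Ifit3b are near copies, so reads that fit both could be lost from either. Oas3, which senses double-stranded RNA, rose by 1.52, Gbp2 and Igtp by 0.82 each, and Bst2 by 0.48. Isg15 was not called (log2 fold change 0.58, adjusted p = 0.0814), although its groups, at 1.70, 1.24 and 1.51 CPM and 1.90, 2.77 and 1.87 CPM, did not overlap.

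The promoters of these genes were read for the interferon-stimulated response element, here GAAANNGAA on both strands, which can overlap itself. The motif was in 23 of the 42 promoter windows of the list (54.8%), against 2812 of 32851 windows overall (8.56%). Stretches of 80 bases, all within positions −164 to −29 from the start, are shown 5′ to 3′ on the gene's strand for members that rose, Ifit1 (chr19:34640757-34640836, plus strand), Ifit3 (chr19:34583365-34583444, plus strand) and Oas3 (chr5:120777688-120777767, minus strand), and for Isg15 (chr4:156200847-156200926, minus strand), which was not called, with the matches in capitals. Members on either side of the threshold carry the letters.
Ifit1: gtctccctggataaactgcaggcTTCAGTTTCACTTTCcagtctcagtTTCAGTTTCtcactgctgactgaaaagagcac
Ifit3: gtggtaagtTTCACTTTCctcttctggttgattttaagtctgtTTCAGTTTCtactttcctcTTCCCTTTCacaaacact
Oas3: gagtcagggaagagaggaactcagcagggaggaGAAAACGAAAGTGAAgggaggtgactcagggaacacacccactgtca
Isg15: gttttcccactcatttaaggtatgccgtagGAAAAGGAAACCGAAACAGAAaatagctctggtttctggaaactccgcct

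Other immune genes were mixed. Of 18 genes of antigen presentation by MHC class I, 5 rose and 3 fell, or 1 without vehicle replicate 1 or 3 or FGF2 replicate 1 or 3, with H2-T23 higher by 0.69 and B2m not called (log2 fold change 0.01). Of 31 chemokine and cytokine genes, 12 rose and 7 fell. Cxcl12, a chemokine that retains progenitor cells, was at 76.3, 104 and 86.3 CPM with vehicle and at 421, 414 and 401 CPM with FGF2 (log2 fold change 2.21, SE 0.07, adjusted p = 3.18e-13), and its receptor Cxcr4 rose from 1.04, 1.55 and 1.09 CPM to 2.86, 4.38 and 3.65 CPM (log2 fold change 1.55). Il1rl1, the receptor of interleukin 33, fell by 1.49. Of 18 complement and coagulation genes, 6 rose and 7 fell. F13a1, a transglutaminase of blood clotting that also cross-links matrix, was at 15.9, 20.4 and 16.6 CPM against 0.866, 0.691 and 0.679 CPM (log2 fold change −4.56, SE 0.18, adjusted p = 3.74e-12), while complement C3 was at 7.46, 7.46 and 7.64 CPM against 31.8, 24.4 and 27.8 CPM (log2 fold change 1.89).

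Transcription factors of the NC and the face were called higher in 20 of 36 cases and lower in 8 (median log2 fold change 0.22). Foxc1, required for the skull vault, was at 55.7, 54.7 and 54.4 CPM with vehicle and at 80.9, 79.8 and 80.2 CPM with FGF2 (log2 fold change 0.55, SE 0.04). Pax3 and Tfap2a, early NC factors, rose by 0.57 and 0.39, the jaw factor Lhx6 by 1.44 and the palate factor Osr2 by 1.17. Snai2, which drives the exit of NC cells from the epithelium, was at 85.9, 78.4 and 80.1 CPM against 45.9, 43.7 and 44.0 CPM (log2 fold change −0.87), and Twist1 fell by 0.42, whereas Snai1 rose by 0.35. On the stemness list 5 of 11 genes rose, or 3 without vehicle replicate 1 or with DESeq2, and 1 fell. Klf4 and Myc, which the paper places among its stemness and proliferation genes, fell. They were counted with the ERK-responsive factors and not on this list. Hmga2 rose by 0.26. Imprinted growth-control genes rose in 10 of 17 cases and fell in 1, with Peg3 at 6.04, 6.83 and 5.87 CPM against 10.8, 13.8 and 10.4 CPM (log2 fold change 0.90), Mest and Meg3 higher by 0.32 and 0.52, and H19 not called with overlapping groups (log2 fold change −0.10). Cdkn1c, an imprinted inhibitor of the cell cycle counted with the G1 genes, was at 15.4, 15.0 and 15.1 CPM against 45.6, 38.6 and 37.5 CPM (log2 fold change 1.42).

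Of the 18 G1 cyclins and CDK inhibitors, 7 rose and 5 fell. Ccnd2 fell by 1.17 and Cdkn2c by 1.02, and Cdkn1b rose by 0.22. Of 28 p53 targets, 10 rose and 6 fell, with Sesn1 and Plk2 higher by 0.83 and 1.07 and Cdkn1a lower by 0.40. Of 11 BCL2 family genes, 5 rose and 4 fell: the death-promoting Bcl2l11 and Bmf rose by 0.52 and 0.63, as did the protective Bcl2l1 (0.49), and Mcl1 fell by 0.28. Of 34 Nrf2 and oxidative stress genes, 11 rose and 12 fell, with Nqo1 and Gstm1 higher by 0.89 and 0.80, Gclm lower by 0.52 and Hmox1 not called (log2 fold change 0.00). Of 56 lysosome and autophagy genes, 18 fell and 9 rose. Ctsk, a collagen-degrading protease, was at 42.8, 43.5 and 44.6 CPM with vehicle and at 1.82, 2.15 and 2.04 CPM with FGF2 (log2 fold change −4.43, SE 0.11, adjusted p = 2.19e-14). Ctsb fell by 0.61, and the autophagy genes Map1lc3b, Gabarapl1 and Ulk1 rose by 0.38, 0.37 and 0.42.

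Axon guidance genes, which also steer NC cells, fell in 22 and rose in 19 of 54 cases. The secreted cues Sema3a and Slit2 fell, Sema3a from 142, 126 and 132 CPM to 72.4, 66.4 and 67.2 CPM (log2 fold change −0.96) and Slit2 by 0.72, and so did the ephrin Efnb2 (−1.19) and the receptor Plxna4 (−2.35). The receptor Plxnb1 was at 7.65, 10.5 and 10.7 CPM against 33.4, 30.1 and 30.6 CPM (log2 fold change 1.69), and the repulsive cue Rgma rose by 1.16. Of 15 neuronal genes tested, 3 rose and 6 fell.

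The largest changes among named genes were not confined to 1 pathway. Chdh led the 12 largest rises among genes whose log2 CPM averaged 1 or more and whose libraries did not overlap. It encodes choline dehydrogenase, which makes betaine, and was at 0.567, 1.55 and 0.755 CPM with vehicle and at 8.31, 7.14 and 8.58 CPM with FGF2 (log2 fold change 3.003, SE 0.24, adjusted p = 1.82e-08). Ndrg2 was at 4.25, 6.76 and 4.03 CPM against 27.7, 21.05 and 21.7 CPM (log2 fold change 2.21), and Myom1, of the sarcomeric M-band, at 4.06, 3.42 and 4.196 CPM against 22.2, 15.6 and 18.4 CPM (log2 fold change 2.26). Igsf9, Fam107a and Plppr3 rose by 2.40, 2.13 and 2.12. Among the falls, beside those described, Prss35, a putative secreted protease, was at 47.7, 52.0 and 47.7 CPM against 1.99, 4.30 and 3.31 CPM (log2 fold change −3.92), Pi15 fell by 3.24 and Pdzd2 by 2.99. Ogn, Thbs1, Vim and Acta2, described with their groups or as markers, were among the 6 named genes with the largest gains of CPM, as was Cst3, the cysteine protease inhibitor cystatin C, which rose from 555, 606 and 581 CPM to 1364, 1177 and 1259 CPM (log2 fold change 1.12).

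The effect of FGF2 at d5 differed from that at d2.5 for most genes. In a fit of all 18 libraries, the effect of FGF2 differed between d5 and d2.5 for 8643 of 14198 genes (60.9%), above the d2.5 effect for 4509 and below it for 4134, or for 5169 and 3492 with upper-quartile factors. Over all genes in that fit, the difference was called above for 31.8% and below for 29.1%. In the fit of d2.5 alone, 9243 of 13677 genes tested were called (67.6%), 33.5% higher and 34.1% lower. These shares are the background for the d2.5 counts given here. Of the 4739 genes called on both days, 1716 went the same way and 3023 opposite ways, 1506 raised at d2.5 and lowered at d5 and 1517 the reverse. The Atf4 list was on the side raised first: 27 of its 30 genes were called higher at d2.5 (median log2 fold change 0.74), and the difference between days was called below for all 30. Trib3 went from a log2 fold change of 1.07 at d2.5 to −3.69 at d5, a difference of −4.78 (adjusted p = 9.3e-16), and Mthfd2 from 0.93 to −3.24, a difference of −4.19. Ribosome biogenesis did likewise, with all 53 genes called higher at d2.5 (median log2 fold change 0.81) and the difference called below for 52, as for Nop56 (difference −2.17). The cell cycle list had this shape too, with 156 of 158 genes called higher at d2.5. Galnt3, an enzyme of O-glycosylation that was at 8.69, 9.40 and 10.4 CPM with vehicle and at 1.39, 1.84 and 1.27 CPM with FGF2 at d5, had a difference of −5.34, and Il1rl1, Stc2 and Lif differed by −5.18, −4.50 and −4.36.

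**Figure D4:**
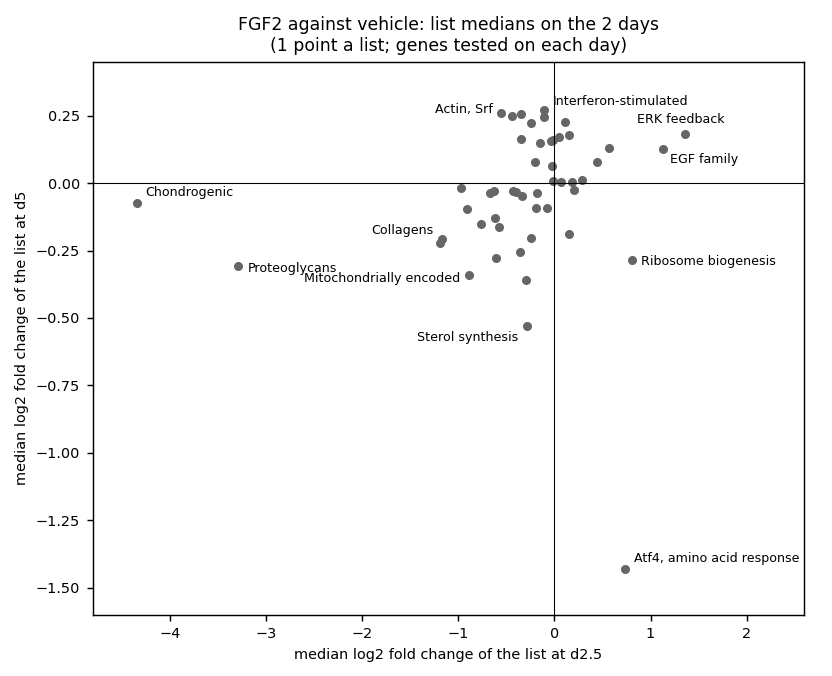
Median log2 fold change with FGF2 of each of the 50 gene lists at d2.5 (horizontal) and at d5 (vertical), 1 point a list, over the genes tested on each day. The Atf4 list lies at 0.74 and −1.43 and ribosome biogenesis at 0.81 and −0.28, in the quadrant of lists raised at d2.5 and lowered at d5.

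Contractile genes and some cartilage and matrix genes were lowered at d2.5 and raised at d5. Of the actin list, 24 of 30 genes tested at d2.5 were called lower then, with Acta2 at a log2 fold change of −3.16 at d2.5 and a difference of 3.63 (adjusted p = 6.24e-22). All 12 chondrogenic genes tested at d2.5 were called lower (median log2 fold change −4.35), whereas at d5 the list was split (6 higher and 7 lower of 14). Acan went from −2.12 to 2.33, a difference of 4.43. Col9a2, Matn4, Frzb, Agt, Megf6 and Aoc3 had the 6 largest differences in this direction among the genes the naming rule takes, at 7.91, 7.11, 6.47, 7.77, 6.91 and 6.70, and each was called higher at d5. Ogn went from −4.93 to 0.95 (difference 5.85), Cxcl12 from −1.75 to 2.21 (difference 3.93) and Fgfr2 from −3.33 to 0.45 (difference 3.76). Proteoglycans as a list were lowered on both days, but far more at d2.5 (median log2 fold changes −3.29 and −0.31), and the difference was called above for 13 of 17 genes. Sterol synthesis was also lowered on both days, with a median of −0.29 at d2.5, and was called below at d5 for 14 of 30 genes and above for 7. Hmgcs1 itself did not differ between days past the threshold (difference −0.11, adjusted p = 0.0862), but did without vehicle replicate 3 (adjusted p = 0.0401) or FGF2 replicate 1 (0.0231) of d5 and with RLE factors (0.0381).

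The feedback inhibitors of ERK were raised at d2.5 in 15 of 19 cases (median log2 fold change 1.35), and the difference was called below at d5 for 15. Dusp6 went from a log2 fold change of 3.09 to −0.19 (difference −3.30), Spry4 from 3.16 to 0.33 (difference −2.86) and Etv5 from 3.86 to 0.59 (difference −3.29). Some effects did not differ past the threshold. Rgs16 had a log2 fold change of 2.07 at d2.5 and 2.08 at d5 (difference −0.01, SE 0.19, adjusted p = 0.978), and Itga3 had 1.42 and 1.36 (difference −0.09, adjusted p = 0.512).

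**Figure D5:**
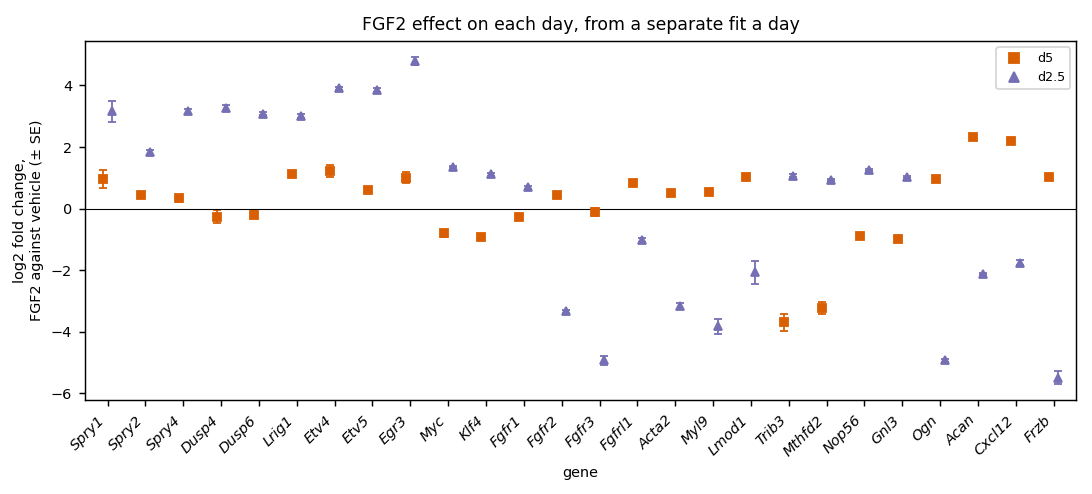
Log2 fold change with FGF2 (± SE) of 26 genes at d5 (orange squares) and d2.5 (purple triangles), each day fitted on its own 9 libraries. Etv4, Etv5 and the Sprouty genes are above 0 on both days and nearer to 0 at d5, Trib3, Mthfd2, Nop56 and Gnl3 cross from above to below 0, and Acta2, Ogn, Acan, Cxcl12 and Frzb cross from below to above 0.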

How the data were processed

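RNA-seq libraries of polyadenylated RNA were compared. Per the labels, the submitters' processing notes name FastQC, STAR, Picard, featureCounts and the mm10 genome, with no versions, and the values the authors deposited for each library are unnormalized counts by gene. The reverse-strand counts were used, since they held 96.0% to 96.6% of the stranded counts on genes. Rows that name no gene, which took 27.0% to 34.4% of reads, were left out. Of 55335 gene identifiers, 55154 were named from GENCODE M21.

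Counts were fitted with edgeR 4.0.16 in R 4.3.3 (TMM factors, filterByExpr, quasi-likelihood test, Benjamini-Hochberg threshold 0.05) over the 9 libraries of d5. The effect at d2.5 came from a separate fit of its 9 libraries, and the difference between days from 1 fit of all 18. Totals on genes of 11026929 or more in the libraries compared limit precision mainly for genes near 1 CPM. On simulated counts for this comparison over 13192 genes, 85% of 100 genes changed 1.5-fold and 87.6% of 97 changed 2-fold were recovered, and 11.5% of calls were false. The simulation changed only these few genes, whereas 47.2% were called in the data. Its share of false calls therefore does not carry over to the calls reported here.

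The members and lists were chosen with earlier results of these data known. Named genes were the 12 largest rises and falls (called, mean log2 CPM of at least 1, libraries of the 2 groups not overlapping, no predicted model or pseudogene), marked genes and up to 4 rises and 4 falls on each list, the 6 largest gains and losses of CPM, and the 6 largest differences between days in each direction among genes called in opposite directions. Outside the marked and list genes, members of the osteogenic and cell cycle lists were left out. Members outside this rule (Atf3, Slc1a5, Insig2, Egfl7, Pmp22, Cnp, Mbp) were named after their values were seen. Some genes the rule takes are not reported here.

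Alternatives were DESeq2 1.42.0, RLE and upper-quartile factors, other filters on low counts, other sets of libraries, the replicate number as a block, unstranded counts, stricter thresholds and leaving out each library. Samples with the same replicate number were not taken as pairs in the main fit. Their deviations from the group means correlated at 0.145, 0.157 and 0.027.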

Additional observations from a re-analysis of the deposited data

Results flagged for a closer look

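The effect of FGF2 differed between d5 and d2.5 for 8643 genes in edgeR's fit of all 18 libraries. The genes listed here are a selection from the genes of the report with such a difference, and others are not listed. Values are the log2 effect at d5 minus that at d2.5. Below the d2.5 effect were Galnt3 (−5.34), Il1rl1 (−5.18), Trib3 (−4.78), Stc2 (−4.50), Lif (−4.36), Mthfd2 (−4.19), Dusp6 (−3.30), Etv5 (−3.29), Spry4 (−2.86) and Nop56 (−2.17). Above it were Col9a2 (7.91), Agt (7.77), Matn4 (7.11), Megf6 (6.91), Aoc3 (6.70), Frzb (6.47), Ogn (5.85), Acan (4.43), Cxcl12 (3.93), Fgfr2 (3.76) and Acta2 (3.63). The days were also separate batches, and their part in these differences cannot be told apart.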

How the results depend on the processing

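The count of genes called at d5, 6278, was 5028 with DESeq2, between 5919 and 6570 under the other normalizations, filters and sets of libraries, 6203 with unstranded counts and between 5526 and 6104 when 1 library was left out. The balance of directions, 3125 higher and 3153 lower, depended on the scaling. It was 3483 and 2827 with upper-quartile factors, 2987 and 3279 with RLE factors and 2329 and 2699 with DESeq2. At least 2-fold were 771 genes, 324 higher and 447 lower, and for the difference between days 2747, 1504 above and 1243 below. The collagen median was −0.34 with at least 10 counts in every library and the proteoglycan median −0.36 with no filter on low counts. When 1 library was left out, the collagen median ranged from −0.28 to −0.17 (without FGF2 replicates 2 and 1), the proteoglycan median from −0.36 to −0.31 and that of mitochondrially encoded genes from −0.47 to −0.28. No gene of the report that was run under the alternatives, and no list median given as a main result, changed its direction with a call.

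The fit with the replicate number as a block called 6352 genes at d5, of which 6194 were shared with the fit without it, and 8625 for the difference between days. The titles do not say whether the numbers pair the libraries. Each number correlated best with itself (0.145, 0.157 and 0.027), and unlike numbers correlated between −0.154 and −0.001. These values do not settle whether the libraries are pairs. Depth limits genes near 1 CPM, such as Cnn1 and Gli1, and with 3 libraries a group a call missed at this size does not show that a gene did not differ.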
